A study of Equus caballus with 6 samples.

Results

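Integrins, cadherins and protocadherins are the membrane proteins by which cells hold on to matrix and to each other, and the horse array carried 75 of their genes among 12725 genes that could be named. A gene belonged to the set when its symbol was ITGA or ITGB followed by a number or letter, CDH followed by a number, or any symbol beginning with PCDH, and ITGB1BP genes were left out. The set held 25 integrin subunits (17 alpha and 8 beta), the integrin-beta-like gene ITGBL1, 18 cadherins and 31 protocadherins, read by 181 probes. The series had 6 single-colour arrays, 1 for each tissue region. The adult regions were the superficial zone (the outermost 10% of the depth), the middle zone (given as the adjacent 20 to 30%) and the deep zone (50 to 90%) of articular cartilage of the stifle, at an age of 15 years. The fetal arrays were of day 40 of gestation, from the hindlimb, and held the intermediate interzone, the outer interzone and the transient embryonic cartilage. The interzone is the band of cells between future bones where a joint forms, and transient cartilage is the cartilage model that bone later replaces. Cells of each region were cut out by laser capture microdissection, and the cDNA of their RNA was copied by the SuperAmp protocol, a global PCR amplification. The number of animals is not given in the sources used here.

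Every region had 1 array, so no difference below has a replicate check, none was tested, and a difference compares 2 arrays rather than 2 kinds of tissue. The fetal arrays shared 1 slide and the adult arrays another, so stage and slide cannot be told apart. Levels are in scaled signal units, in which 1000 units is the 75th percentile of the 1765 probes passing the scanner's well-above-background flag on every array. A gene with several probes is given by the probe with the highest mean over the arrays. A gene counted as measured in a comparison when that probe was well above background on every array compared. Where no probe of the gene was well above background on 1 side, the difference is a bound ("at least N-fold") against the lowest signal called well above background there, or the gene's own signal if higher. Each probe has its own brightness, so levels are compared between arrays within a gene and never between genes. The spot error beside a difference is the scanner's error for the spots compared, and it does not cover variation between probes or samples. Over all genes with several measured probes, the pooled standard deviation of the log2 difference between probes of a gene was larger. It was 0.505 to 0.556 in the fetal pairs and 0.811 to 1.03 in the adult pairs.

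The arrays differed in how much they detected. Of all genes, 28.9%, 9.63% and 12.2% were well above background on the adult superficial, middle and deep arrays, and 38.2%, 44.0% and 46.2% on the intermediate interzone, outer interzone and transient cartilage arrays. The tissue labels were set against marker genes. Of 11 chondrocyte markers, 4, 3 and 3 were well above background on the superficial, middle and deep arrays, against 6, 9 and 11 on the intermediate, outer and transient arrays. COL2A1, the main cartilage collagen, was not well above background on any adult array, while COMP and SOX9 were above it on all 6. Of 9 joint interzone markers, 8 were above background on each interzone array and 6 on the transient cartilage array. GDF5, the growth factor that marks the forming joint, was above background only on the interzone arrays, at 268 units in the intermediate and 96.1 units in the outer interzone.

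Integrins are pairs of an alpha and a beta subunit that bind matrix or ligands on other cells and link them to the actin skeleton through talin and its partners. Cadherins bind each other between cells in the presence of calcium and hold catenins with their tails, and type I and type II cadherins differ in the interface by which they bind. Clustered protocadherins are made from neighbouring genes of the alpha, beta and gamma clusters and are best known from neurons, where sets of them give cells an identity. In cartilage, integrins that contain the beta 1 subunit are the main collagen and fibronectin receptors of chondrocytes, and cadherin-11 is known from mesenchyme and from the lining of the synovium.

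The probes show what the array reads of these genes. Integrin alpha tails share a glycine and a pair of phenylalanines just inside the membrane, and their codons were searched for as GGNTTNTT. A probe with this motif in an open frame was found for 8 of the 17 integrin alpha genes (47.1%) and for 1 of the other 58 members (1.72%). Of all 43603 probes, 1.67% held the motif as printed and 4.43% held it on either strand. A match describes these letters only. The 5 probes below, as designed for the array, come from alpha genes whose levels differed between regions, and capitals mark the bases that match GGNTTNTT.
ITGA1: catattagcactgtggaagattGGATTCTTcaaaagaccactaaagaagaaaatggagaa
ITGA10: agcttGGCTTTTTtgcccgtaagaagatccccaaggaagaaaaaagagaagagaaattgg
ITGA5: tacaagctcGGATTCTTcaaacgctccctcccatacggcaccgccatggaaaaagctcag
ITGAV: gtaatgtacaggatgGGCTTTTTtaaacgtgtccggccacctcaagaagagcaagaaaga
ITGAE: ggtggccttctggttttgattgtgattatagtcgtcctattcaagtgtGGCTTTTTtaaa

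Other probes are shown because they limit or carry a result. CDH10 and CDH7, type II cadherins with different patterns over the regions, have probes on the same stretch of the tail. In the best ungapped alignment 26 of 37 bases were equal (70.3%), and capitals mark the equal bases.
CDH10: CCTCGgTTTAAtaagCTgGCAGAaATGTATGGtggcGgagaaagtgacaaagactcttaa
CDH7: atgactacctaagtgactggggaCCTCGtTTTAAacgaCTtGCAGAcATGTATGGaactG
Probes of PCDHGB4 and PCDHGB5 share a run of 37 bases, and probes of PCDHGA1 and a gene annotated as PCDHGA2-like share 23, so signals within each pair cannot be told apart with certainty. Capitals mark the shared run.
PCDHGB4: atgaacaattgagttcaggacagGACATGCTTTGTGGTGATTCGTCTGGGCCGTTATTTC
PCDHGB5: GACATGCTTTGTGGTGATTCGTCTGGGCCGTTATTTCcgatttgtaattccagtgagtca
PCDHGA1: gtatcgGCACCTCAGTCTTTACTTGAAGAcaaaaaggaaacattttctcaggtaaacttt
PCDHGA2-like: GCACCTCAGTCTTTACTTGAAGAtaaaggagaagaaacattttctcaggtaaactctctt
The last 3 probes read CDH18, ITGB8 and PCDHB4, genes that were well above background on 1 or 2 arrays only.
CDH18: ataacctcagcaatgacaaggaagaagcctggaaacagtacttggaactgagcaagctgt
ITGB8: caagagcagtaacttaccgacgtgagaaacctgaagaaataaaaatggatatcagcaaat
PCDHB4: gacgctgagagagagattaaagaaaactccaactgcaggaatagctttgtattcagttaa
Of the 36 members with several probes, 17 had every probe sharing at least 50 bases with another probe of the gene, among them the 5 probes each of ITGA10, PCDHB4, PCDHB11-like and PCDHGA1. Such probes are not independent measurements.

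The share of members detected lay below that of all genes on each of the 6 arrays, narrowly so on the adult deep array, and the difference was not tested. On the adult superficial, middle and deep arrays 11, 5 and 9 of the 75 were well above background (14.7%, 6.67% and 12.0%, against 28.9%, 9.63% and 12.2% of all genes). On the intermediate interzone, outer interzone and transient cartilage arrays the counts were 20, 22 and 23 (26.7%, 29.3% and 30.7%, against 38.2%, 44.0% and 46.2% of all genes). In all, 43 members were above background on 1 or more arrays and 32 on none (42.7%, against 37.3% of all genes). Signal on 1 array only was seen for 20 members (26.7%, against 15.4% of all genes), and signal on all 6 arrays for 1, ITGA7 (1.33%, against 4.32%). Fetal arrays alone detected 25 members (33.3%, against 29.2%), adult arrays alone 5 (6.67%, against 5.12%), and 13 were detected at both stages (17.3%, against 28.3%). Fewer cells of a type and less RNA per cell cannot be told apart in such bulk samples.

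**Figure D1:**
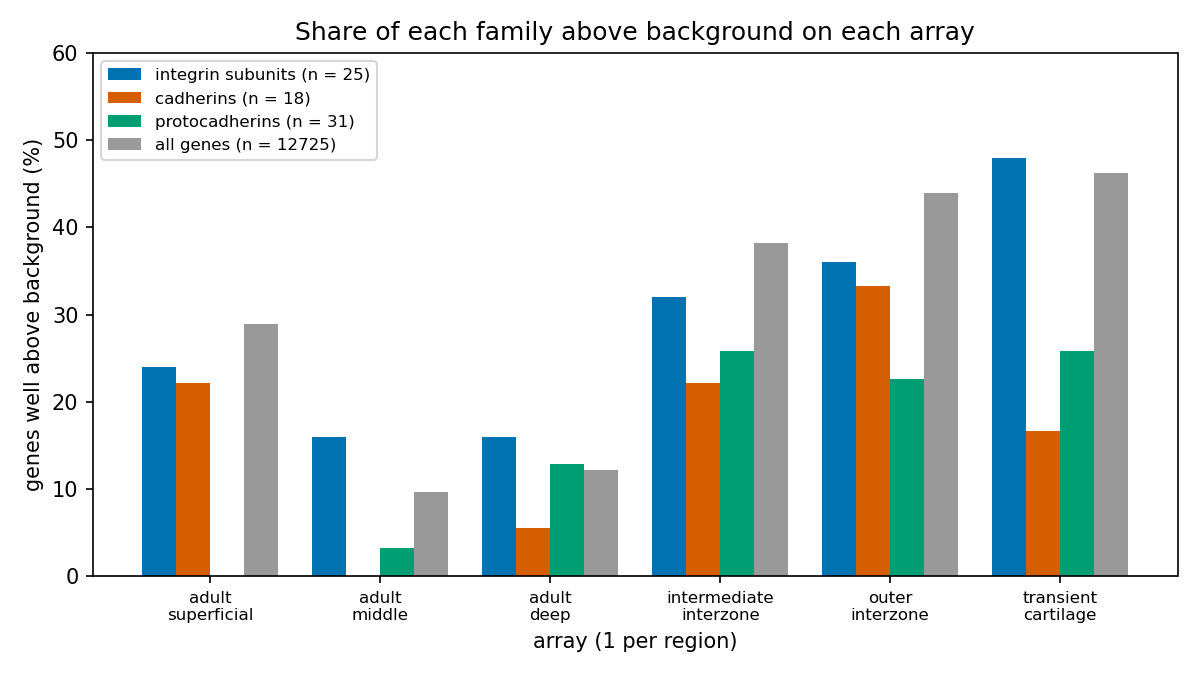
Bars give the percentage of genes well above background on each array (1 array per region) for 25 integrin subunits, 18 cadherins, 31 protocadherins and all 12725 named genes. Integrin subunits reach 48.0% on the transient cartilage array, and no protocadherin passed on the adult superficial array.

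Counts by family are given beside the shares of all genes, and differences between families were not tested. Integrin subunits numbered 6, 4 and 4 of 25 on the superficial, middle and deep arrays and 8, 9 and 12 on the intermediate, outer and transient arrays (24.0%, 16.0%, 16.0%, 32.0%, 36.0% and 48.0%, against 28.9%, 9.63%, 12.2%, 38.2%, 44.0% and 46.2% of all genes). Cadherins numbered 4, 0 and 1 of 18 on the adult arrays and 4, 6 and 3 on the fetal arrays (22.2%, 0% and 5.56%, then 22.2%, 33.3% and 16.7%). Protocadherins numbered 0, 1 and 4 of 31 on the adult arrays and 8, 7 and 8 on the fetal arrays (0%, 3.23% and 12.9%, then 25.8%, 22.6% and 25.8%). Of the protocadherins, 15 were seen on fetal arrays only (48.4%, against 29.2% of all genes) and 12 on 1 array only (38.7%, against 15.4%).

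**Figure D2:**
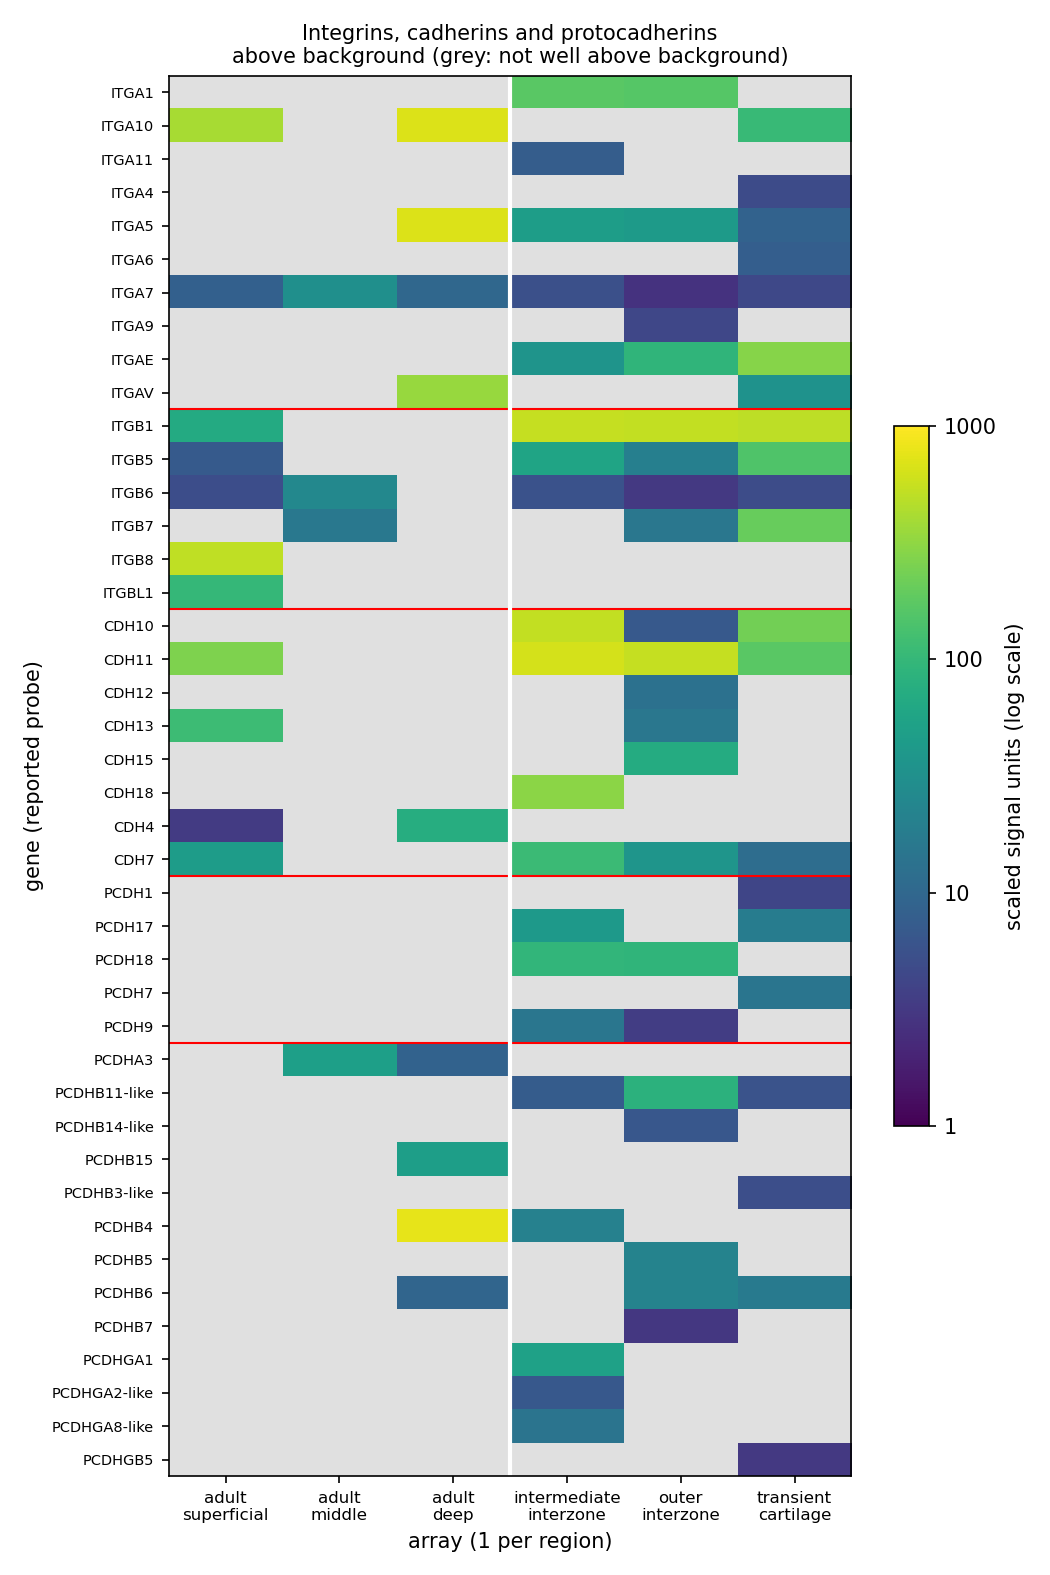
Colours give the level of each member's reported probe in scaled signal units (log scale) on the 6 arrays, for the 42 members whose reported probe was well above background on 1 or more, and grey cells were not well above background. Rows compare arrays within a gene, and only ITGA7 has colour on all 6 arrays.

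Among the collagen-binding integrin alpha subunits, ITGA10 and ITGA1 were seen on different arrays. ITGA10, the alpha 10 subunit that binds type II collagen on chondrocytes, read 402 units on the adult superficial and 695 units on the adult deep array, and 106 units on the transient cartilage array. It was not well above background on the adult middle array or on either interzone array. Transient cartilage was thus the fetal region with ITGA10, with the intermediate interzone at least 27.6-fold and the outer interzone at least 52.2-fold below it. In the adult, the superficial level was 1.73-fold below the deep level (log2 difference -0.79, spot error 0.20), and the middle level was at least 25.9-fold below the superficial and at least 44.8-fold below the deep level. The 5 overlapping ITGA10 probes gave superficial minus deep differences between -0.81 and -0.67 on the log2 scale. Among fetal regions the summed level of the chondrocyte markers was 4679, 7777 and 105500 units on the intermediate, outer and transient arrays. On the adult arrays it was 8222 units in the superficial, 5114 in the middle and 107000 in the deep zone, of which COMP alone was 6523, 3669 and 106300 units. SOX9 had another order there, at 285, 1396 and 513 units, and the part of cell makeup in the ITGA10 levels was not tested.

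ITGA1, the alpha 1 subunit that prefers basement membrane collagen, had the opposite distribution among fetal regions. Its reported probe read 173 units in the intermediate and 163 units in the outer interzone and did not pass background in transient cartilage or any adult zone. Against transient cartilage its bounds were at least 81.4-fold higher (intermediate) and at least 76.6-fold higher (outer). The probe printed above read 44.6 and 108 units in the same interzone regions, and the other probe of ITGA1 was not well above background on any array. Type IV collagen genes, ligands of this subunit, were seen on the same arrays. COL4A1 read 93.8 and 95.2 units and COL4A2 143 and 177 units in the intermediate and outer interzone, and neither was well above background on the other 4 arrays. ITGA11, another collagen-binding subunit, read 7.71 units in the intermediate interzone and was not above background elsewhere, and ITGA2 was not above it on any array.

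Of the alpha subunits that bind the RGD sequence, ITGA5 and ITGAV were detected, while ITGA8 and the platelet subunit ITGA2B were not above background on any array. The reported probe of ITGA5, the alpha 5 fibronectin receptor subunit, read 688 units on the adult deep array, and 46.7, 43.5 and 8.88 units on the intermediate, outer and transient arrays. It was not well above background on the superficial and middle arrays. Among fetal regions the intermediate interzone was 5.26-fold and the outer interzone 4.90-fold above transient cartilage (log2 differences 2.39 and 2.29, spot errors 0.22 and 0.22). Both fell short of 4-fold under normexp background correction (1.66 and 0.90), and the outer difference also after quantile normalization (1.94), while the mean over both probes gave 2.17 and 3.77. The other ITGA5 probe, the one printed above, gave higher levels in both interzone regions than in transient cartilage too, at 9.42, 92.9 and 2.46 units in the intermediate, outer and transient regions. In the adult zones the probes disagreed. This other probe read 31.2 units on the middle array and was not well above background on the deep array, where the reported probe was at its highest.

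ITGAV, the alpha V subunit of vitronectin and fibronectin receptors, read 340.1 units on the adult deep array and 33.7 units in transient cartilage. It was not well above background on the other 4 arrays. The superficial level was at least 106-fold below the deep level, and the middle level at least 21.9-fold below it. Interzone levels were at least 8.76-fold (intermediate) and at least 16.5-fold (outer) below transient cartilage. These values rest on 2 of 6 probes, since the other 4 ITGAV probes were not above background on any array.

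**Figure D3:**
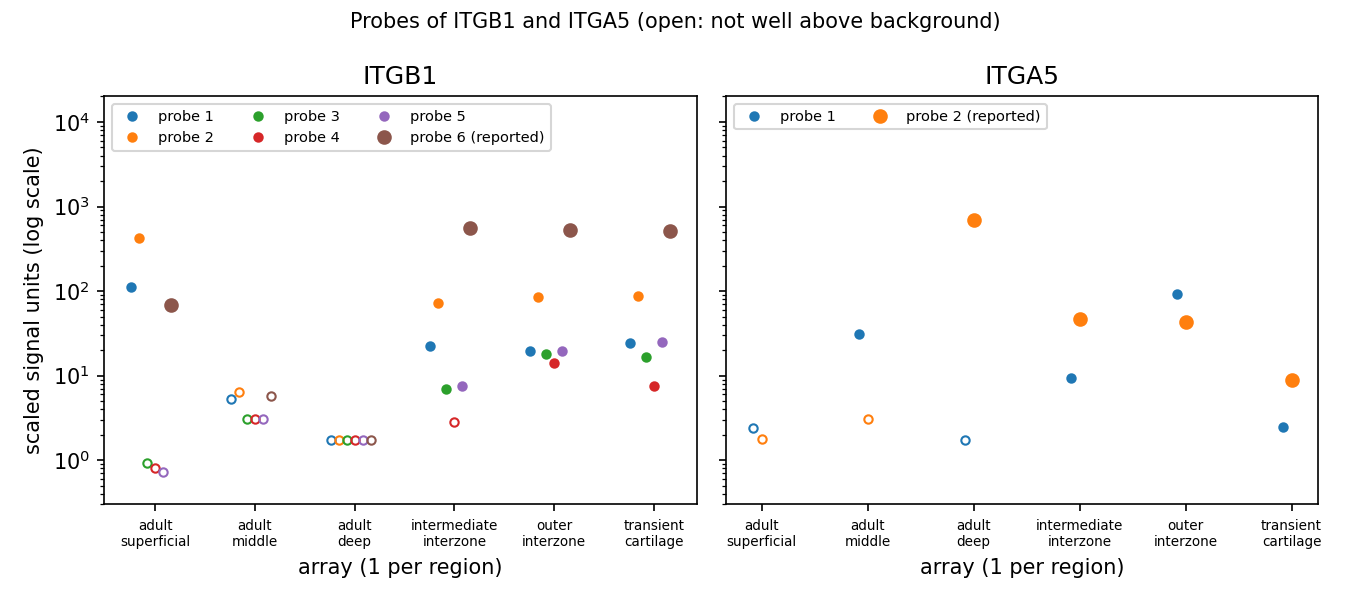
Points give each probe of ITGB1 (left, 6 probes) and ITGA5 (right, 2 probes) in scaled signal units on a log axis across the 6 arrays, with open points not well above background and the reported probe drawn larger. Probes of ITGB1 differ on the adult superficial array, where the reported probe read 68.4 units, and the ITGA5 probes differ on the middle and deep arrays.

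ITGA7, a laminin-binding subunit best known from muscle, was the member measured on all 6 arrays. It read 8.40, 31.2 and 9.97 units on the superficial, middle and deep arrays, and 5.33, 2.78 and 4.47 units on the intermediate, outer and transient arrays. The adult arrays were all above the fetal arrays, with means 3.40-fold apart (log2 difference 1.77). That difference was 1.18 without the middle array and 2.12 without the superficial array. It passed 4-fold when arrays were scaled by the 75th percentile of all probes (4.47) or by quantile normalization (4.06). Before scaling, the same spots had signals of 21.5, 15.8, 8.88, 12.8, 12.2 and 19.1 intensity units in that order, so the unscaled range was 2.42-fold and the stages overlapped. ITGB6 had unscaled signals of 12.7 to 21.3 intensity units on the 5 arrays that detected it, and 6.62 on the adult deep array, where it was not well above background. Of the remaining laminin-binding subunits, ITGA6 read 7.85 units in transient cartilage only, and ITGA3 was not above background on any array.

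ITGAE and ITGB7 form the alpha E beta 7 integrin, known from lymphocytes that bind E-cadherin on epithelium. ITGAE read 35.5, 91.6 and 283 units on the intermediate, outer and transient arrays, and was not well above background in any adult zone. It was 7.98-fold lower in the intermediate interzone (log2 difference -2.997, spot error 0.21, but -1.90 under normexp) and 3.10-fold lower in the outer interzone (-1.63) than in transient cartilage. The second ITGAE probe read 117 and 471 units on the outer and transient arrays and was not above background in the intermediate interzone. ITGB7 read 15.7 units on the adult middle array and 15.4 and 203 units on the outer and transient arrays. In the outer interzone it was 13.2-fold lower than in transient cartilage (log2 difference -3.72, spot error 0.21), and in the intermediate interzone it was at least 52.6-fold lower. Both subunits were highest in transient cartilage. The leukocyte subunits ITGB2, ITGAL, ITGAM and ITGAX were not well above background on any array. Of 8 leukocyte and macrophage markers, 4, 3 and 3 were above background on the superficial, middle and deep arrays and 6 on each fetal array. Their summed level was 335, 198 and 108 units on the intermediate, outer and transient arrays, of which AIF1 gave 194, 25.3 and 19.6 units, and CD68 was highest in the outer interzone, at 52.5, 124 and 51.8 units. CD14 and TYROBP were not above background anywhere, and the part of such cells in the ITGAE and ITGB7 values was not tested. ITGA4 and ITGA9, subunits with leukocyte and matrix ligands, were dim. ITGA4 read 4.80 units in transient cartilage only, and the brightest ITGA9 probe read 6.81 and 10.0 units on the outer and transient arrays.

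ITGB1, the beta 1 subunit shared by most matrix-binding integrins, was level among the fetal regions by its reported probe. That probe read 550.0, 531 and 508 units in the intermediate interzone, outer interzone and transient cartilage, so the differences from transient cartilage were 0.11 and 0.06 on the log2 scale, with a spot error of 0.20. Over all ITGB1 probes measured in a pair, the differences ranged from -1.76 to 0.11 for the intermediate interzone and from -0.38 to 0.90 for the outer interzone, both minus transient cartilage. On the adult superficial array the reported probe read 68.4 units, and the middle and deep arrays did not detect ITGB1 with any of its 6 probes. The superficial level was at least 4.40-fold above the middle and at least 7.96-fold above the deep level. Set against the fetal arrays, the probes disagreed. Unlike the reported probe, 2 others were brighter on the superficial array, at 113 and 426 units, than on any fetal array, where they read 19.4 to 24.1 and 71.7 to 86.7 units. The remaining probes were not well above background on the superficial array and read up to 17.95, 14.0 and 25.3 units on fetal arrays. ITGB1 therefore has no settled direction between the superficial zone and the fetal regions.

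The other beta subunits were seen more narrowly. ITGB8, a partner of alpha V that binds latent TGF-beta, read 512 units on the adult superficial array, and its second probe 357, and neither probe was well above background on any other array. The superficial level was at least 33.0-fold above the middle and at least 59.6-fold above the deep level. ITGBL1, which has integrin-beta-like repeats and is not a receptor subunit, was also above background on the superficial array only, at 99.6 and 43.4 units by its 2 probes. It was at least 6.42-fold above the middle and at least 11.6-fold above the deep level. ITGB5, another partner of alpha V, read 7.07 units on the superficial array, and 56.3, 19.5 and 148 units on the intermediate, outer and transient arrays. The outer interzone was 7.55-fold lower than transient cartilage (log2 difference -2.92, spot error 0.21), and the intermediate interzone 2.62-fold lower (-1.39). ITGB6, known from epithelium, was dim on every array that detected it, with 5.08, 25.1, 5.63, 3.19 and 4.99 units on the superficial, middle, intermediate, outer and transient arrays, by 1 of its 3 probes. It was 4.93-fold lower on the superficial than on the middle array (log2 difference -2.30), where the median of all measured genes was -1.53. With the authors' values the difference was -0.36 and the all-gene median 0.42. ITGB2, ITGB3 and ITGB4 were not above background on any array.

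Integrins work as pairs, so the known partners were followed across arrays. ITGA10 and ITGB1 were both above background on the adult superficial and transient cartilage arrays, and ITGA10 without ITGB1 on the adult deep array. ITGA1 and ITGB1 were both seen in the intermediate and outer interzone, and ITGA5 and ITGB1 in all 3 fetal regions. On the adult middle and deep arrays ITGA5 was seen without ITGB1, by a different ITGA5 probe on each array. ITGAV had ITGB1, ITGB5 and ITGB6 beside it in transient cartilage and no known partner on the adult deep array. ITGB8 on the superficial array was seen without ITGAV. ITGAE and ITGB7 were both seen in the outer interzone and transient cartilage, ITGAE alone in the intermediate interzone and ITGB7 alone on the adult middle array. A partner not above background is not shown to be absent on arrays that detected 9.63% and 12.2% of all genes.

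CDH10, CDH18 and CDH7, all type II cadherins, separated the fetal regions in different ways. CDH10 read 525, 6.90 and 229 units on the intermediate, outer and transient arrays, and was not well above background in the adult zones. The outer interzone stood apart, at 33.2-fold below transient cartilage (log2 difference -5.05, spot error 0.22) and 76.1-fold below the intermediate interzone, for which the intermediate minus outer difference was 6.25. CDH18 was above background in the intermediate interzone alone, at 298 units and, by its second probe, 82.9 units. It was at least 140.1-fold above transient cartilage and at least 146-fold above the outer interzone there. CDH7 read 44.9 units on the adult superficial array, and 111, 36.7 and 11.7 units on the intermediate, outer and transient arrays. The intermediate interzone was 9.52-fold above transient cartilage (log2 difference 3.25, spot error 0.21), and the outer interzone 3.14-fold above it (1.65). A second CDH7 probe was above background in the intermediate interzone only, at 29.6 units. CDH10, CDH18 and CDH7 are best known from the nervous system.

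CDH11, cadherin-11 of mesenchyme and synovium, was detected in every fetal region and in the adult superficial zone. It read 263 units on the adult superficial array, and 646, 549 and 171 units on the intermediate, outer and transient arrays. The interzone layers were 3.78-fold (intermediate, log2 difference 1.92) and 3.22-fold (outer, 1.69) above transient cartilage, short of 4-fold. In the adult, the superficial level was at least 16.9-fold above the middle and at least 30.6-fold above the deep level. CDH13, a cadherin held by a lipid anchor with no tail, read 115 units on the superficial array and 15.5 units in the outer interzone, and its second probe read 76.2 and 14.2 units on the same arrays. The superficial zone was at least 7.42-fold above the middle and at least 13.4-fold above the deep zone. In the outer interzone CDH13 was at least 7.32-fold above transient cartilage, and the intermediate interzone was at least 4.04-fold below the outer interzone.

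Some cadherins were limited to 1 or 2 arrays. CDH15, the M-cadherin of muscle precursors, read 69.7 units in the outer interzone and was not above background elsewhere, at least 32.8-fold above transient cartilage. CDH12, a type II cadherin, read 13.2 units in the outer interzone only, at least 6.21-fold above transient cartilage. Of 5 skeletal muscle markers, 2 were above background in the outer interzone and 3 each in the intermediate interzone and transient cartilage. Their summed level was 545, 373 and 345 units on the intermediate, outer and transient arrays. ACTA1, above background on all 6 arrays, gave 446, 367 and 255 units of it. MYL1 read 92.5, 3.60 and 37.7 units in the same order, and DES and MYOG were not above background in the outer interzone. Of 5 epithelial markers, EPCAM (20.8 units) and KRT17 (225 units) were above background in the outer interzone and none in the other fetal regions, and their part in the outer interzone values was not tested. CDH4, or R-cadherin, read 3.36 units on the superficial and 74.97 units on the deep array, a 22.3-fold lower superficial level (log2 difference -4.48, spot error 0.34, and -2.32 under normexp). The middle level of CDH4 was at least 4.83-fold below the deep level.

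The best-known cadherins were not above background on any array. CDH1 (E-cadherin), CDH2 (N-cadherin, of condensing mesenchyme) and CDH5 (of endothelium) were in this group, each read by 1 probe. CDH6, CDH16, CDH17, CDH19, CDH20, CDH22 and CDH23 were in it too. Genes not above background here are not shown to be absent. For CDH5, of 7 endothelial markers, EGFL7 was above background on all 6 arrays, VWF on the adult arrays and TIE1 in the outer interzone (9.77 units), with summed levels of 31.8, 127 and 60.9 units for the list (superficial, middle and deep). The list summed to 23.5, 22.4 and 17.2 units on the intermediate, outer and transient arrays, and PECAM1, KDR, TEK and ESAM were above it on no array. The 1 platelet marker on the array was not above background anywhere, like ITGA2B and ITGB3.

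Of 7 protocadherins outside the clusters, 5 were seen on fetal arrays only (71.4%, against 29.2% of all genes) and 2 on no array (28.6%, against 37.3%). PCDH18, a delta protocadherin, read 95.4 units in the intermediate and 92.0 units in the outer interzone, and did not pass background in transient cartilage. The bounds above transient cartilage were at least 44.9-fold in the intermediate and at least 43.3-fold in the outer interzone. PCDH17 read 42.1 units in the intermediate interzone and 18.0 in transient cartilage, with the outer interzone at least 20.6-fold below the intermediate and at least 8.83-fold below transient cartilage. PCDH9 read 14.9 units in the intermediate and 3.46 units in the outer interzone, 4.30-fold apart (intermediate minus outer 2.10, spot error 0.28). This difference rests on 1 of its 2 probes, since the second probe also read 3.46 units in the outer interzone and was not above background in the intermediate interzone. It was under 4-fold with quantile normalization (1.40), normexp (1.81) and the authors' values (1.84). By the same probe the intermediate interzone level stood at least 7.01-fold above transient cartilage. PCDH7 read 14.5 units in transient cartilage only, and the outer interzone was at least 7.12-fold lower. PCDH1 read 4.22 units in transient cartilage, and PCDH11X and PCDH12 were not above background on any array.

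Of 24 clustered protocadherins, 14 were above background on 1 or more arrays and 10 on none (41.7%, against 37.3% of all genes). Signal on 1 array only was seen for 10 of the 24 (41.7%, against 15.4% of all genes). PCDHB4 had the highest bound among the members. It read 780.0 units on the adult deep array and 20.8 units in the intermediate interzone, and was not well above background on the other 4 arrays. The superficial level was at least 242-fold and the middle level at least 50.3-fold below the deep level, and the intermediate interzone was at least 9.77-fold above transient cartilage. All 5 overlapping PCDHB4 probes gave this pattern, with 742 to 838 units on the deep array. A gene annotated as PCDHB11-like read 7.46, 83.8 and 5.88 units on the intermediate, outer and transient arrays. It was 14.3-fold above transient cartilage in the outer interzone (log2 difference 3.83, spot error 0.23, and 3.69 to 3.92 over its 5 overlapping probes), and 11.2-fold lower in the intermediate than in the outer interzone (-3.49). Under normexp these differences were 1.89 and -0.83. Genes of this cluster are close copies, and cross-hybridisation between them was not tested.

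Other clustered protocadherins were each seen in few regions. PCDHGA1 read 52.1 units in the intermediate interzone alone, at least 24.5-fold above transient cartilage and at least 25.6-fold above the outer interzone, and PCDHGA8-like read 14.4 units there, at least 6.79-fold and at least 7.07-fold above the same regions. PCDHB5 read 21.9 units in the outer interzone alone, at least 10.3-fold above transient cartilage, and the intermediate interzone was at least 5.69-fold below it. PCDHB6 read 9.62 units on the adult deep array, and 21.8 and 16.6 units on the outer and transient arrays, and the intermediate interzone was at least 5.65-fold below the outer interzone and at least 4.30-fold below transient cartilage. PCDHB15 read 47.7 units on the adult deep array alone, with the superficial level at least 14.8-fold lower. Its overlapping probes differed on the deep array. A further probe read 9.26 units there and another was not above background, while the others read 48.3 and 58.0 units. PCDHA3 read 48.9 units on the adult middle and 8.86 units on the adult deep array, 5.52-fold apart (middle minus deep 2.47, spot error 0.36), and the superficial level was at least 15.2-fold below the middle. The middle minus deep difference was under 4-fold with the 75th percentile of all probes (1.78), normexp (1.11) and the authors' values (1.60). The remaining 11 detected members, among them PCDHB7, PCDHB14-like, PCDHB3-like, PCDHGA2-like, PCDHGB4 and PCDHGB5, were above background on 1 or 2 arrays, and their reported probes, where they passed, read 3.05 to 7.85 units. Not above background on any array were PCDHA12, PCDHAC2, PCDHB1, PCDHB2, PCDHB16, PCDHB18-like, PCDHGA5, PCDHGB2, PCDHGB3-like and PCDHGC4.

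The pair of intermediate interzone and transient cartilage asks which adhesion genes mark the joint-forming layer. ITGA5 and CDH7 were at least 4-fold higher and ITGAE lower among 11 measured members. Among all genes measured (4034), 15.0% were higher by this size and 6.67% lower, and the median member difference was 0.34, against 0.36 for all genes. Bounds of at least 4-fold were found for 7 members higher (CDH18, ITGA1, PCDH18, PCDHGA1, PCDHB4, PCDH9 and PCDHGA8-like) and 4 lower (ITGB7, ITGA10, ITGAV and PCDHB6), of 32 members above background on either array. These are 21.9% and 12.5% of the members, against 8.42% and 10.4% of all such genes. Whether these shares differ was not tested.

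The outer interzone against transient cartilage gave ITGA5 and PCDHB11-like higher and CDH10, ITGB5 and ITGB7 lower by at least 4-fold, of 12 measured members. Among all 4497 genes measured, 10.6% were higher and 8.41% lower, and the medians were -0.29 for members and 0.08 for all genes. With the authors' median scaling 4 members were higher, and the all-gene median moved to 0.47. Bounds of at least 4-fold covered 6 members higher (ITGA1, PCDH18, CDH15, PCDHB5, CDH13 and CDH12) and 4 lower (ITGA10, ITGAV, PCDH17 and PCDH7) of 32 (18.8% and 12.5%, against 8.61% and 10.7% of all such genes). Between the interzone layers, intermediate minus outer, CDH10 and PCDH9 were at least 4-fold higher and PCDHB11-like lower among 13 measured members, with 11.0% and 7.36% for all 3994 genes. By their reported probes the 7 measured integrin subunits ranged from -1.37 to 1.53 on the log2 scale. The second probe of ITGA5 gave -3.30 (9.42 and 92.9 units), and the second probe of ITGAE was above background in the outer interzone alone, at 117 units. The bound of ITGB7 rounds to 4.00-fold but falls short of it. Bounds of at least 4-fold were found for 5 members higher (CDH18, PCDHGA1, PCDH17, PCDHB4 and PCDHGA8-like) and 4 lower (CDH15, PCDHB5, PCDHB6 and CDH13) of 29 (17.2% and 13.8%, against 9.27% and 9.49%). The pairs share arrays, so their counts are not independent. Among differences that stayed past 4-fold, normexp gave smaller sizes, at 4.80 for CDH10 between the interzone layers and -3.62 for CDH10, -2.34 for ITGB5 and -2.94 for ITGB7 in the outer interzone minus transient cartilage, and 2.28 for CDH7 in the intermediate interzone minus transient cartilage.

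**Figure D4:**
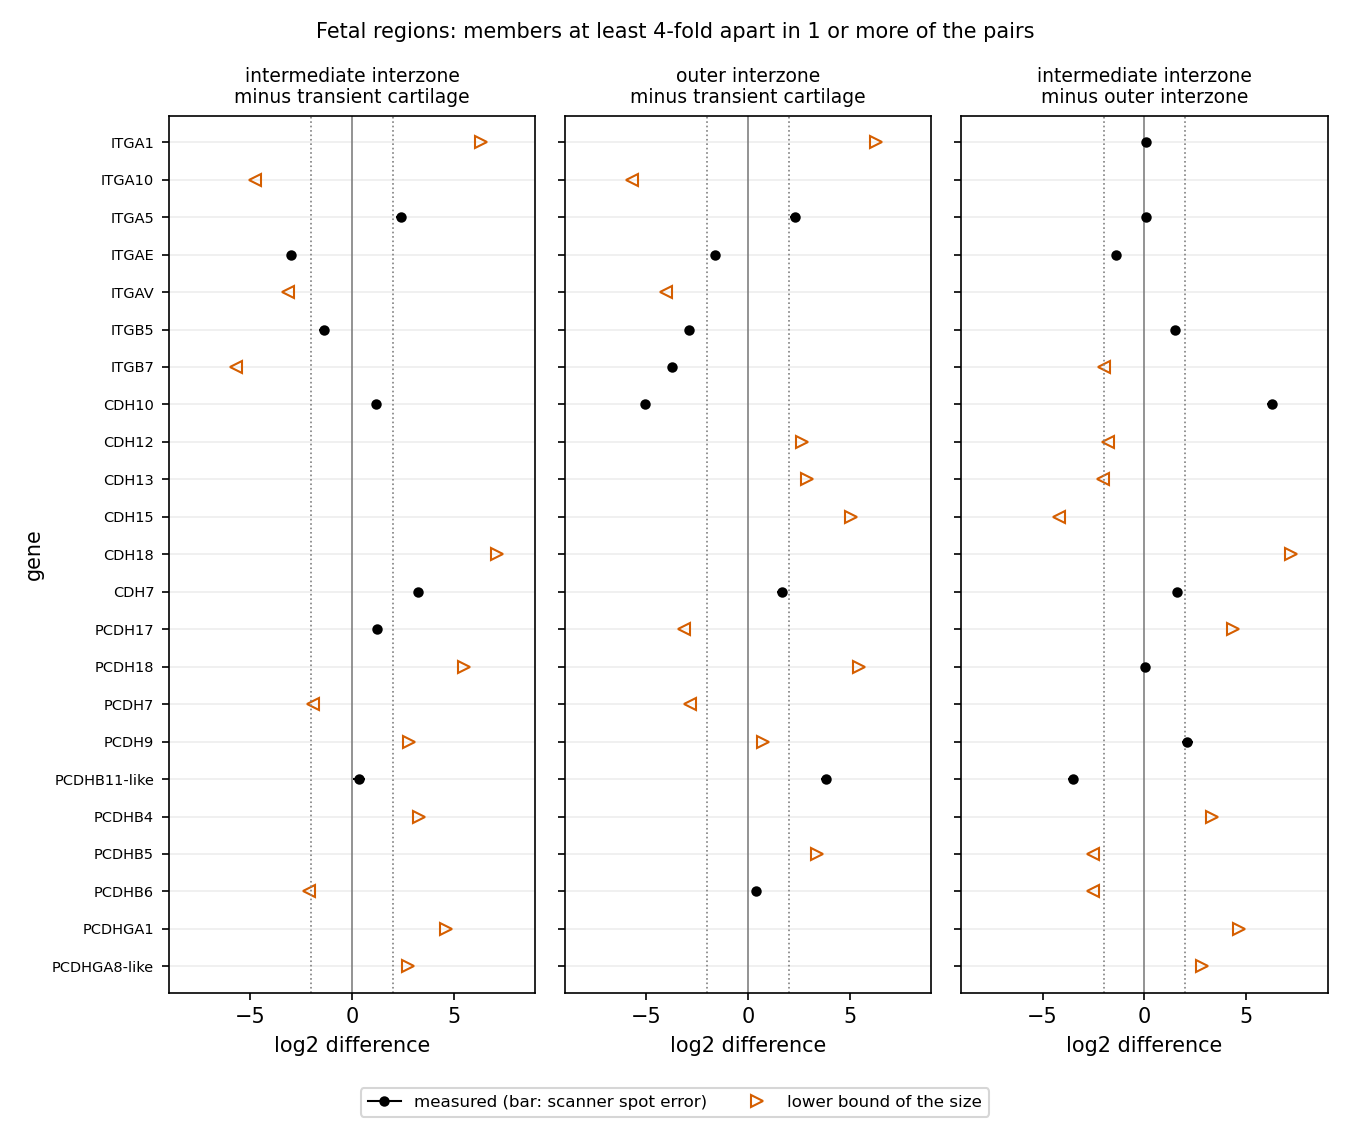
Points give log2 differences of the members at least 4-fold apart in 1 or more of the 3 fetal pairs, with bars for the scanner's spot error (mostly smaller than the point), and open arrowheads give bounds. Dotted lines mark 4-fold. CDH10 lies at -5.05 in the outer interzone minus transient cartilage and 6.25 in the intermediate minus outer interzone.

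In adult cartilage few members were measured in any pair of zones. Superficial minus middle had 2, ITGA7 and ITGB6, of which ITGB6 was at least 4-fold lower. Of all 909 genes measured, 8.91% were higher and 37.4% lower, and the all-gene median was -1.53. Bounds of at least 4-fold were found for 6 members higher on the superficial array (ITGB8, ITGA10, CDH11, CDH13, ITGBL1 and ITGB1) and 2 lower (PCDHA3 and ITGB7), of 14 above background (42.9% and 14.3%, against 31.2% and 8.57% of all such genes). The ITGB7 bound (at least 4.88-fold) rests on 15.72 units on the middle array. The lowest signal called well above background was 15.52 units there and 3.219 units on the superficial array. The 75th percentiles used for scaling were 507 (middle) and 2560 (superficial) intensity units, so the size of the ITGB7 bound depends on the scaling. Superficial minus deep had 3 measured members, of which CDH4 was at least 4-fold lower, with 11.2% of all 1138 genes higher and 21.7% lower. Bounds covered 6 members higher (ITGB8, CDH11, CDH13, ITGBL1, ITGB1 and CDH7) and 4 lower (PCDHB4, ITGA5, ITGAV and PCDHB15) of 17 (35.3% and 23.5%, against 33.6% and 6.07%). For CDH7 the superficial zone was at least 5.23-fold above the deep zone. In middle minus deep PCDHA3 was at least 4-fold higher of 2 measured members, with 13.1% higher and 7.44% lower of all 739 genes. Bounds there covered 4 members lower (PCDHB4, ITGA10, ITGAV and CDH4) of 11 (36.4%, against 19.3% of all such genes) and none higher, against 10.2%.

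**Figure D5:**
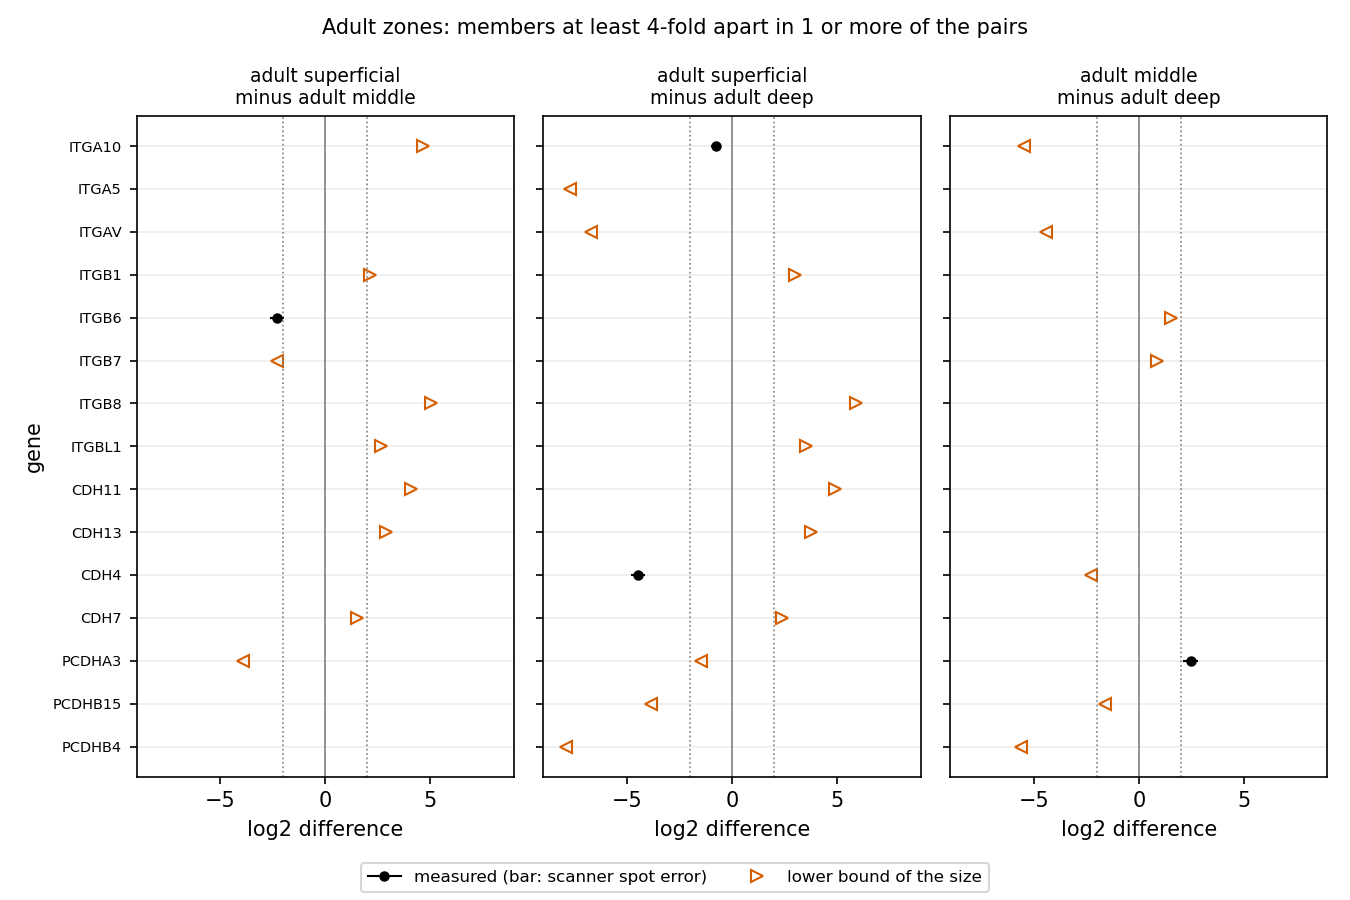
Points give log2 differences with the scanner's spot error, and open arrowheads give bounds, for the members at least 4-fold apart in 1 or more of the 3 adult pairs, with dotted lines at 4-fold. Bounds to the right of 0 in the first 2 panels, such as ITGB8 and CDH11, are superficial, and PCDHB4, ITGA5 and ITGAV lie to the left against the deep zone.

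Adult against fetal means could be measured for ITGA7 alone, which lay under 4-fold at 1.77, though not when scaled by the 75th percentile of all probes (4.47), after quantile normalization (4.06) or without the superficial array (2.12). Among all genes measured (521), 14.4% were higher by this size in the adult and 9.21% lower. Bounds of at least 4-fold were found for 2 members, CDH10 (at least 12.5-fold lower in adult zones) and ITGAE (at least 12.9-fold lower), of 43 above background on any array (4.65%, against 9.68% of all such genes). No member had a bound higher in the adult, against 0.351% of all such genes.

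Genes that work with these receptors gave context. Of 21 integrin adaptors and focal adhesion genes on the array, 10 were measured in the intermediate interzone minus transient cartilage pair, with 3 at least 4-fold higher and 1 lower. Of all 4034 genes measured in that pair, 15.0% were higher and 6.67% lower by this size, and no list was tested against them. ACTN1, an actin crosslinker, read 150 units in the intermediate interzone and 12.9 in transient cartilage (11.6-fold higher), and FLNA, a filamin that binds integrin tails, read 5.50 and 49.4 units (8.98-fold lower). PARVA, a parvin of the ILK complex, was at least 17.0-fold lower there. In the adult, 6 adaptors were above background on the superficial array and 6 different ones on the deep array. Of these, 5 had bounds of at least 4-fold higher and 5 lower in superficial minus deep. Of all 4053 genes above background on either of these arrays, 33.6% and 6.07% had such bounds. Only 1138 genes were measured on both arrays, so most genes seen on either array, like these adaptors, were not measured on both. LIMS1, which pairs with ILK, was at least 617-fold lower and PTK2, focal adhesion kinase, at least 69.4-fold lower in that pair. FERMT2, a kindlin that activates integrins, was at least 60.5-fold higher, at 519.5 units. On the deep array ITGB1 and FERMT2 were thus not above background, while ITGA5, ITGA10, ITGAV, LIMS1 and PTK2 were.

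Of 13 cadherin partners, 6 were measured in the intermediate interzone minus transient cartilage pair, with 1 at least 4-fold higher and none lower (all genes 15.0% and 6.67%). LIMA1, which joins cadherin complexes to actin, was 28.9-fold higher, and CTNND2, a delta catenin, at least 35.3-fold higher. CTNNB1, beta-catenin, read 240.2 units on the adult superficial array and 74.6, 66.7 and 76.1 units in the intermediate, outer and transient regions, and CTNNA1 followed the same arrays. Neither was above background on the middle and deep arrays, as for CDH11, CDH13 and CDH7. HOOK1, another listed partner, went the other way. It read 27.15 units on the superficial and 2694 units on the deep array (99.2-fold lower superficial level), and it was the only partner measured in that adult pair. EPS8 was at least 64.15-fold higher on the superficial than on the deep array. Of 24 integrin ligands, 15 were measured in that fetal pair, with 3 higher and 4 lower by at least 4-fold, beside the same shares of all genes. FBLN5, an RGD-bearing fibulin, was at least 469-fold higher and EDIL3, an alpha V ligand, 74.1-fold lower in the intermediate interzone. EDIL3 read 297 units in transient cartilage, the fetal region with ITGAV. It also read 4.02 units in the intermediate interzone and 15.2 units on the adult superficial array, where ITGAV was not above background. On the adult deep array, where ITGAV was highest, EDIL3 was not above background. VCAM1, a ligand of ITGA4, was at least 236-fold higher on the superficial than on the deep array. Of 15 desmosomal and other cadherin-family genes, 5 were measured in the fetal pair, and the intermediate interzone was higher for FAT4 (54.9-fold) and FAT1 (4.18-fold). The desmosomal genes DSG2, DSG3 and DSC3 were not above background on any array.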

How the data were processed

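Gene expression was measured in 6 horse tissue regions with 1 single-colour array each. The deposited files are the scanner's output, from version 10.7.3.1 of Agilent Feature Extraction (per the file headers). The intensity used is the processed signal, linear and background-subtracted by the authors' software per the file headers. Flags for detection above background, for saturation and for outliers were deposited with it. The authors' deposited series table holds a ratio: set against the scanner values, each value is that intensity over its array's median, and each column has a median of 1.0. It served as an alternative. No spot was saturated, and outlier spots and controls were left out. Spots of 1 probe were averaged. The main value is log2 of the processed signal minus each array's 75th percentile over the 1765 probes that carried the detection flag on all 6. The number of arrays limits the precision.

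Of 43603 probes, 22312 were named from the symbol, gene number or full name in the probe description, looked up in RefSeq's horse gene table (TB-T2T), which served for names alone. Of the 181 member probes, 74 were named by symbol, 26 by a symbol missing from that table, 59 by full name and 22 by gene number. Differences and quantile normalization used Python 3.11.15 with numpy 2.4.6 and pandas 2.3.3, and normexp (offset 50) used limma 3.58.1 in R 4.3.3. The calculation was tested on simulated data. With 1 array per group no p-value was computed, and 4-fold was the size counted. Values on each array are given for members measured on all 6 arrays or at least 4-fold apart by measured value or bound. Of each pathway list, only some genes with large differences are named. The nerve marker list is not reported here. The members, gene lists and rules were chosen with earlier results of these data known. Alternatives were the 75th percentile of all probes, quantile normalization, normexp, the authors' values, the mean over a gene's probes, a wider filter on dim probes and leaving out each array from the stage means.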

Additional observations from a re-analysis of the deposited data

How the results depend on the processing

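No paired analysis was possible because each group has 1 array. The slide could not be used as a block, since each stage lies on a slide of its own. The 15 named differences were recomputed under the 4 settings that change the scaling or background, and all 60 values kept their sign. Of the 56 values of the 14 differences at least 4-fold in size, 43 stayed at least 4-fold. Bounds were not recomputed. Counts of members at least 4-fold higher and lower and their medians moved more, and the cause was not tested unless named. With the wider filter, which also takes dim probes and so compares more genes, the counts higher and lower were 11 and 9 in the intermediate interzone minus transient cartilage, 10 and 10 in the outer interzone minus transient cartilage (median 0.063, against -0.29), and 9 and 8 between the interzone layers. In superficial minus middle they were 7 and 3 (median 3.57, against -2.10), in superficial minus deep 7 and 7, in middle minus deep 2 and 6 (median -3.94, against 2.06), and in adult minus fetal 7 and 10 (median 0.12, against 1.77). Under normexp they were 1 and 0 with a median of 1.14 in the intermediate interzone minus transient cartilage, 0 higher in the outer interzone minus transient cartilage, 1 and 0 between the interzone layers, and 0 higher with a median of 1.05 in middle minus deep. Adult minus fetal had a median of 1.21. With the authors' values 4 were higher in the outer interzone minus transient cartilage (median 0.092), 1 between the interzone layers (median -0.026), and 0 in middle minus deep (median 1.20). Superficial minus middle then had 0 lower (median -0.15), superficial minus deep a median of 0.30, and adult minus fetal 1.22. Quantile normalization gave 1 higher between the interzone layers, 2 lower in superficial minus middle (median -3.57), 2 lower in superficial minus deep (median -2.09), and 1 higher in adult minus fetal (median 4.06). With the 75th percentile of all probes 2 were lower in superficial minus middle, 0 higher in middle minus deep, and 1 higher in adult minus fetal (median 4.47). The median of all measured genes in superficial minus middle was -1.53 in the main setting, 0.42 with the authors' values and -3.14 after quantile normalization, and in adult minus fetal 0.52, -0.02 and 2.66. Leaving out each array from the adult minus fetal means gave 0 to 1 members at least 4-fold higher, none lower, and medians of 1.18 (without the middle array) to 2.12 (without the superficial array, where ITGA7 passed 4-fold).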
